A study of Homo sapiens with 2 samples.

Results

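The mRNAs of 8 integrin subunits (ITGA2, ITGA3, ITGA6, ITGAV, ITGAE, ITGB1, ITGB4 and ITGB5) and of CD151, a tetraspanin that binds integrins, were compared in HCT116 cells, a human colorectal carcinoma cell line. The genes were picked by name and not by a threshold on their values, though with earlier results of these data known. Each had 1 record, giving 9 of the 11420 protein-coding gene records in the deposited mRNA-seq table. One group of cells was infected with lentiviruses expressing LAST shRNA, which targets the c-Myc-inducible long noncoding RNA LAST, and the other with lentiviruses expressing control shRNA, and total RNA was taken from both 96 hr after infection. There was 1 library with LAST shRNA and 1 library with control shRNA, so no value here has a replicate, no test was possible and no difference can be set against the spread between cultures. The methods name a single hairpin, LAST shRNA-1, for this sequencing. LAST is noncoding and was not analysed here, so its level gives no check of the labels.

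Integrins are receptors made of 1 alpha and 1 beta subunit that span the plasma membrane. Outside the cell they bind laminins, collagens, fibronectin or vitronectin, and inside it they bind adaptor proteins that connect them to actin or, for the pair of alpha 6 and beta 4, to keratin filaments through plectin in hemidesmosomes. The beta 1 subunit pairs with many alpha subunits, and in epithelia such as that of the colon the laminin receptors hold cells to the basement membrane. CD151 associates most firmly with the laminin-binding integrins of alpha 3 and alpha 6.

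Values are FPKM, the fragments mapped to a gene scaled to its transcript length and to library size, so that levels of different genes in a library can be set side by side. After adding 1 FPKM, values were put on the log2 scale and the control shRNA value was subtracted from the LAST shRNA value to give the log2 ratio. A gene was counted as higher at 0.58 or above and as lower at -0.58 or below. Summed FPKM over the table was 155390 with LAST shRNA, against 154798 with control shRNA. The read depth is unknown. The marker genes of an epithelial cell were present: EPCAM was at 139 with LAST shRNA, against 137 with control shRNA, KRT8 at 215 with LAST shRNA, against 234 with control shRNA, and KRT18 at 294 with LAST shRNA, against 271 with control shRNA. Of 14 epithelial and colonic markers 8 reached an FPKM of 1 in either library, with a summed level of 899.8 with LAST shRNA, against 848 with control shRNA. The colonic markers were weak: CDX2, a transcription factor of the intestine, was at 1.02 with LAST shRNA, against 1.58 with control shRNA, and KRT20, a keratin of differentiated colon cells, was at 3.62 with LAST shRNA, against 0.767 with control shRNA. The defining markers of other cell types were low, from 2 of 10 stromal, 1 of 12 blood and 1 of 7 endothelial markers. Their summed levels were 3.15, 3.26 and 1.44 with LAST shRNA, against 2.23, 1.58 and 1.25 with control shRNA in the same order. In a bulk sample fewer cells expressing a gene and less RNA per cell cannot be told apart.

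Most of the integrin genes differed little between the libraries, and ITGAV had the largest ratio among the members. ITGAV was the only member of the 9 at 0.58 or above, and 0 members were at -0.58 or below. Over all 11420 records 6.80% were higher and 5.88% were lower, so that 1 of 9 is near the background. The median log2 ratio of the members was -0.09, against 0.01 over all records. The median absolute log2 ratio was 0.17 for the members and 0.19 for all records. Of the 9 members, 6 lay within 0.2 of a log2 ratio of 0, as did 52.4% of all records. The summed FPKM of the 9 members was 274 with LAST shRNA, against 277 with control shRNA.

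**Figure D1:**
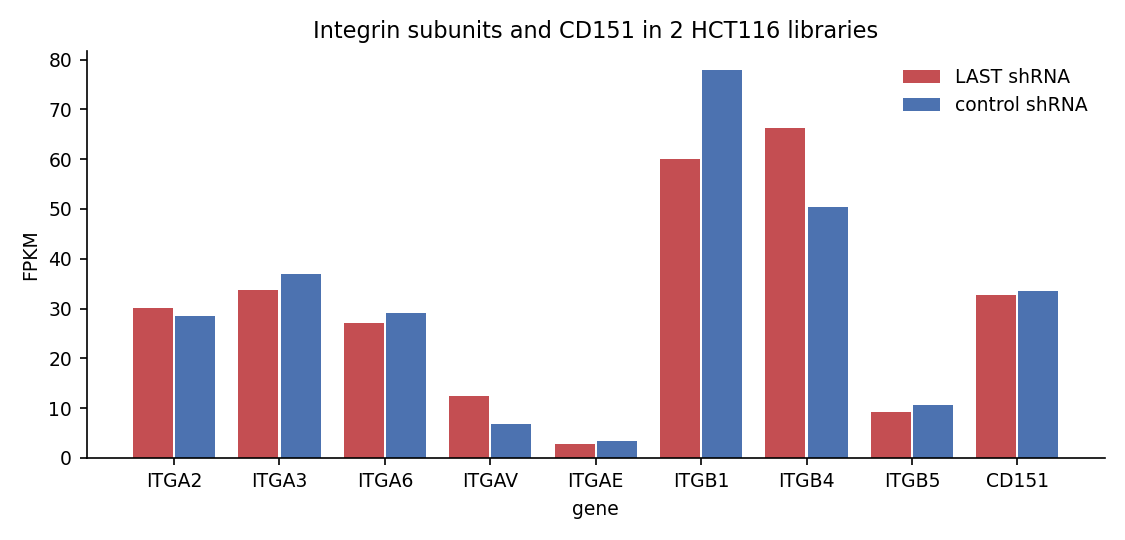
FPKM (y axis) of the 8 integrin subunits and CD151 (x axis), with a bar for the LAST shRNA library to the left of the bar for the control shRNA library; there is 1 library per group and therefore no error bar. ITGAV was at 12.4 with LAST shRNA, against 6.88 with control shRNA, and ITGB4 at 66.3 exceeded ITGB1 at 60.1 with LAST shRNA only.

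Among the alpha subunits, ITGAV encodes alpha V, the subunit shared by the vitronectin and fibronectin receptors that recognise the RGD motif. ITGAV was at an FPKM of 12.4 with LAST shRNA, against 6.88 with control shRNA, a 1.80-fold higher level (log2 ratio 0.76). Its ratio was 478th from the highest of the 11420 records, and 91.9% of the records had a smaller absolute ratio. ITGAV ranked 2829th by level among all records with LAST shRNA and 4778th with control shRNA. Its level was below those of ITGA2, ITGA3 and ITGA6 and above that of ITGAE in both libraries.

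The alpha subunits of the laminin and collagen receptors were close to equal in the 2 libraries. ITGA2 encodes alpha 2 of the collagen receptor, and was at 30.0 with LAST shRNA, against 28.4 with control shRNA (0.08). ITGA3 encodes alpha 3 of a laminin receptor, and was at 33.7 with LAST shRNA, against 37.0 with control shRNA (-0.13). ITGA6 encodes alpha 6, which pairs with beta 1 or beta 4 to bind laminin, and was at 27.2 with LAST shRNA, against 29.1 with control shRNA (-0.09). These 3 genes lay within a narrow band of levels in either library, from 27.2 to 33.7 with LAST shRNA and from 28.4 to 37.0 with control shRNA. ITGAE encodes alpha E, known from lymphocytes within epithelia, where with beta 7 it binds E-cadherin. ITGAE was the weakest member, at 2.84 with LAST shRNA, against 3.31 with control shRNA (-0.17). Its partner gene ITGB7 had no record. PTPRC, the common leukocyte gene, CD3E and CD3D had no record, and CD68 was the only one of the 12 blood markers measured. The summed FPKM of the 5 alpha members was 106 with LAST shRNA, against 105 with control shRNA. Within that sum ITGAV made up 11.7% with LAST shRNA, against 6.58% with control shRNA, and ITGA3 made up 31.7% with LAST shRNA, against 35.3% with control shRNA.

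The 2 most abundant beta subunits differed in opposite directions, both short of the threshold. ITGB4 encodes beta 4, which has a long cytoplasmic part that binds plectin and pairs with alpha 6 only. ITGB4 was at 66.3 with LAST shRNA, against 50.4 with control shRNA, 1.31-fold higher (0.39). ITGB1 encodes beta 1, the common partner of ITGA2, ITGA3, ITGA6 and ITGAV products. ITGB1 was at 60.1 with LAST shRNA, against 77.9 with control shRNA, 1.30-fold lower (-0.37), the lowest ratio among the members. Of all records 77.4% had a smaller absolute ratio than ITGB4 and 75.9% a smaller one than ITGB1. ITGB5 encodes beta 5 of a vitronectin receptor with alpha V, and was at 9.28 with LAST shRNA, against 10.6 with control shRNA (-0.18). The summed FPKM of the 3 beta members was 136 with LAST shRNA, against 139 with control shRNA, so the sums were close while the shares were not. ITGB4 made up 48.8% of the sum with LAST shRNA, against 36.3% with control shRNA, and ITGB1 made up 44.3% with LAST shRNA, against 56.1% with control shRNA.

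CD151 was at 32.7 with LAST shRNA, against 33.6 with control shRNA (-0.03), the smallest absolute ratio of the members. Its level lay next to that of ITGA3 in both libraries, with CD151 at 0.972 of ITGA3 with LAST shRNA, against 0.908 with control shRNA.

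**Figure D2:**
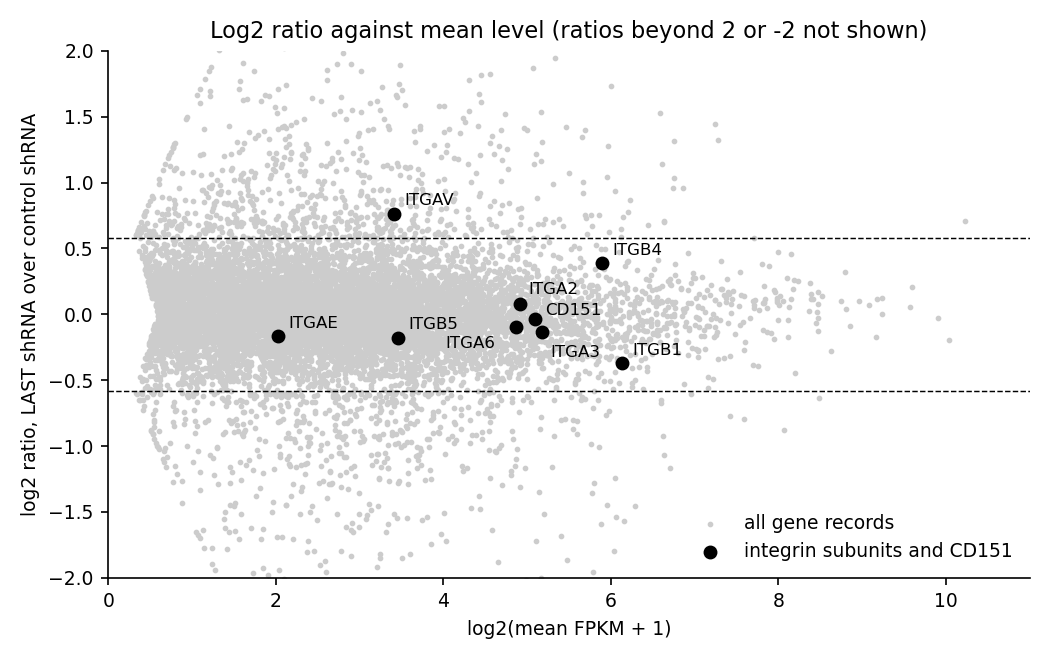
Log2 ratio of LAST shRNA over control shRNA (y axis) against log2 of the mean FPKM + 1 (x axis) for the gene records within the plotted range of ratios (grey) and the 9 members (black, named); dashed lines mark 0.58 and -0.58. ITGAV at 0.76 was the only member beyond a line, with ITGB4 at 0.39 and ITGB1 at -0.37 on opposite sides of 0.

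The order of the members by level was similar in the libraries, with 3 pairs of neighbours exchanged. With LAST shRNA, ITGB4 was first and ITGB1 second, followed by ITGA3, CD151, ITGA2, ITGA6, ITGAV, ITGB5 and ITGAE. With control shRNA, ITGB1 was first and ITGB4 second, followed by ITGA3, CD151, ITGA6, ITGA2, ITGB5, ITGAV and ITGAE. ITGA6 and ITGA2 were within 3 FPKM of each other in either library. Whether any of these neighbours differ by more than their error cannot be told with 1 library per group.

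Ratios of partner subunits within a library do not depend on how the libraries were scaled to each other. The FPKM of ITGAV was 1.33 times that of ITGB5 with LAST shRNA, against 0.648 times with control shRNA, so that ITGAV was the more abundant of the pair with LAST shRNA and ITGB5 with control shRNA. Relative to ITGB1, ITGAV was at 0.206 with LAST shRNA, against 0.0883 with control shRNA. The ratio of ITGAV to ITGB1 was thus 2.33 times as high with LAST shRNA, the largest difference among the pairs of members set side by side here. That follows from the single genes, since ITGAV had the highest and ITGB1 the lowest ratio among the members. For the hemidesmosome pair, ITGA6 was at 0.410 of ITGB4 with LAST shRNA, against 0.576 with control shRNA. The ratio of ITGB4 to ITGB1 was 1.10 with LAST shRNA, against 0.647 with control shRNA. ITGA2 was at 0.50 of ITGB1 with LAST shRNA, against 0.365 with control shRNA, ITGA3 at 0.560 with LAST shRNA, against 0.474 with control shRNA, and ITGA6 at 0.452 with LAST shRNA, against 0.373 with control shRNA. The 4 alpha partners of ITGB1 together had a summed FPKM of 103 with LAST shRNA, against 101 with control shRNA, which was 1.72 times that of ITGB1 with LAST shRNA, against 1.30 times with control shRNA. In both libraries the alpha mRNAs exceeded ITGB1 in sum. These are mRNA ratios and do not measure how much of each pair is assembled.

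**Figure D3:**
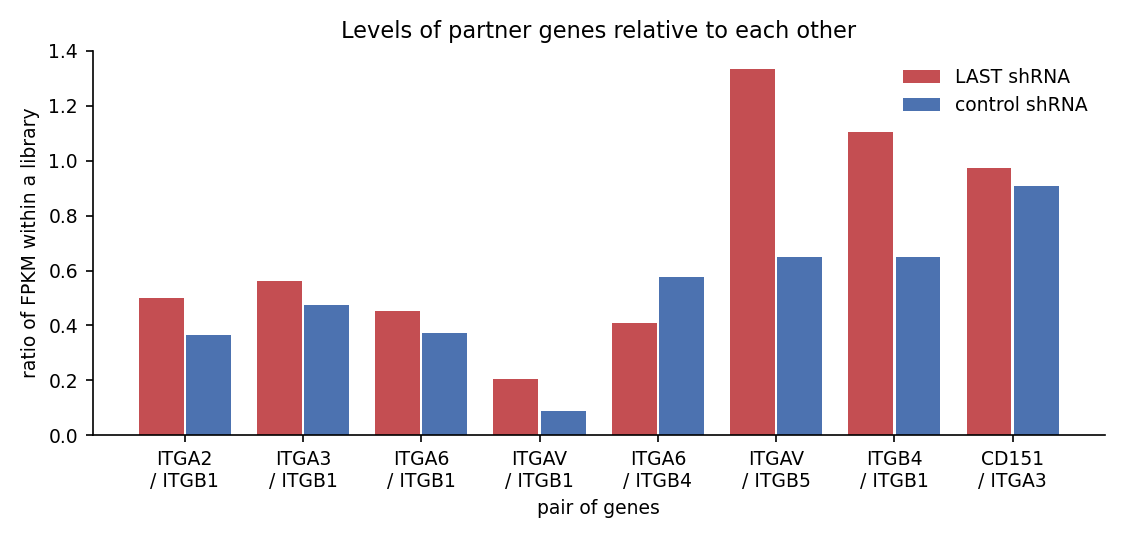
FPKM of 1 gene divided by that of its partner within the same library (y axis) for 8 pairs (x axis), with the LAST shRNA library to the left of the control shRNA library; 1 library per group, no error bars. ITGAV over ITGB5 and ITGB4 over ITGB1 were above 1 with LAST shRNA (1.33 and 1.10) and below 1 with control shRNA (0.648 and 0.647).

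In hg19, the build named in the submitters' notes, the members lay on 6 chromosomes. ITGAV (ENSG00000138448.11_2) lay on chromosome 2 from 187454792 to 187545628 and ITGA6 (ENSG00000091409.14_2) on the same chromosome from 173292082 to 173371010, each on the plus strand. Chromosome 17 held ITGB4 (ENSG00000132470.13_1) from 73717408 to 73753899 and ITGA3 (ENSG00000005884.17_1) from 48133332 to 48167845 on the plus strand, and ITGAE (ENSG00000083457.11_1) from 3617922 to 3704537 on the minus strand. On the minus strand, ITGB1 (ENSG00000150093.18_2) spanned 33189247 to 33294720 of chromosome 10 and ITGB5 (ENSG00000082781.11_2) spanned 124480795 to 124620265 of chromosome 3. ITGA2 (ENSG00000164171.10_1) lay on chromosome 5 from 52285156 to 52390609 and CD151 (ENSG00000177697.17_1) on chromosome 11 from 832843 to 839831, each on the plus strand. Members on the same chromosome had ratios of different signs: ITGB4 was at 0.39 while ITGA3 was at -0.13 and ITGAE at -0.17.

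The locus of ITGB4 overlapped that of GALK1, a galactose kinase gene on the opposite strand (8.14 with LAST shRNA, against 7.03 with control shRNA), but no exon of another gene covered its longest coding transcript in GENCODE. The locus of CD151 overlapped that of POLR2L, an RNA polymerase subunit gene on the opposite strand, at 104 with LAST shRNA, against 89.5 with control shRNA. Exons of opposite-strand genes covered 11.3% of the longest coding transcript of CD151, 6.25% of that of ITGA6, 2.89% of that of ITGAV and 2.02% of that of ITGAE. The use of strand in counting is not given in the sources used here, and the part of these overlaps in the values was not tested. No exon of another gene on the same strand overlapped an exon of the longest coding transcript of a member.

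The members differ widely in exon structure, which goes with the spread of ratios over the whole table. In GENCODE the largest exon was the last one in the longest coding transcript of all 9 members. It held 54.1% of the transcript in ITGA2 and 52.7% in ITGAV, but 8.16% in ITGAE and 6.81% in ITGB4. The share was 28.0% in ITGA3, 34.8% in ITGB1, 38.1% in ITGA6, 40.5% in ITGB5 and 42.4% in CD151. Over all records with a share of 40% to 60%, the class of ITGAV, 6.33% of 3193 were higher and 5.61% lower past the threshold. Under 20%, the class of ITGB4 and ITGAE, 1.83% of 818 records were higher and 1.10% lower. ITGA2 and ITGAV, alike in this share and each with 30 exons, had log2 ratios of 0.08 and 0.76. The part of exon structure in the ratio of ITGAV was not tested.

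**Figure D4:**
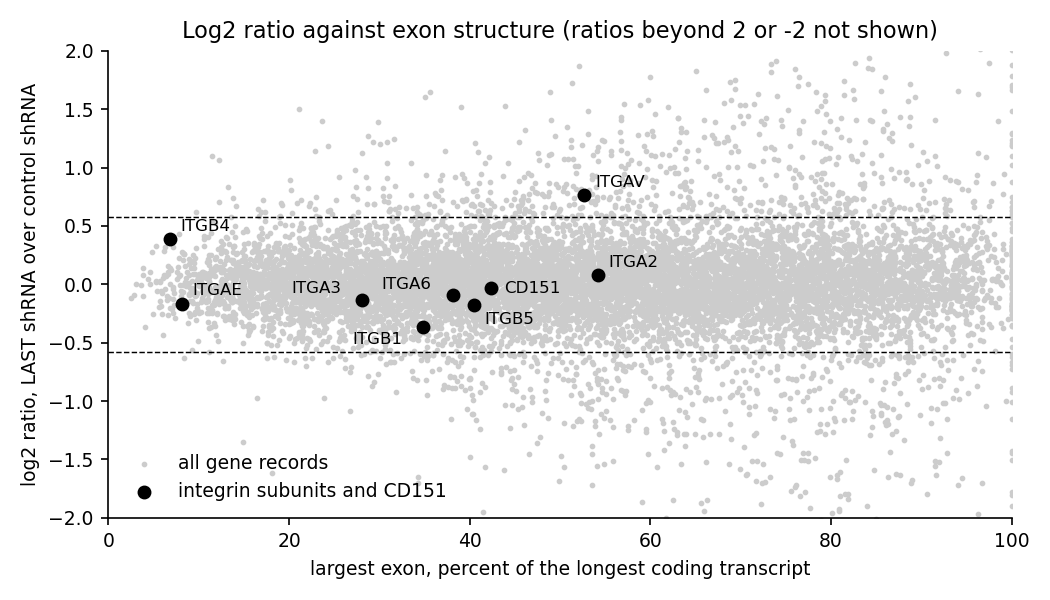
Log2 ratio of LAST shRNA over control shRNA (y axis) against the percentage of the longest coding transcript held by its largest exon (x axis) for the matched records within the plotted range of ratios (grey) and the 9 members (black, named); dashed lines mark 0.58 and -0.58. ITGAV (52.7%, 0.76) and ITGA2 (54.1%, 0.08) had similar shares and different ratios, and ITGB4 (6.81%, 0.39) was at the low end of the axis.

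Promoter sequences are shown for the member past the threshold (ITGAV), for the member with the lowest ratio (ITGB1) and, for comparison, for ITGA2, whose exon structure resembles that of ITGAV. They come from RefSeq on GRCh38.p14 and run over the 250 bases before the outermost annotated start, from 5′ to 3′ on the strand of the gene. Capitals mark a GC box, the letters GGGCGG or the reverse complement CCGCCC, which SP1 and related factors are known to bind. The ITGAV window is chr2:186589806-186590055 on the plus strand, the ITGB1 window chr10:32958231-32958480 on the minus strand and the ITGA2 window chr5:52989102-52989351 on the plus strand.
ITGAV: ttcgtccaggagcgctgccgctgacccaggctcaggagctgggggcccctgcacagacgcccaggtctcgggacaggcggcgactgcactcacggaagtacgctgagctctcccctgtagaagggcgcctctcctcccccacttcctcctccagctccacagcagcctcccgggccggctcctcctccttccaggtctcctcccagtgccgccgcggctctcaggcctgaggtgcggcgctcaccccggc
ITGB1: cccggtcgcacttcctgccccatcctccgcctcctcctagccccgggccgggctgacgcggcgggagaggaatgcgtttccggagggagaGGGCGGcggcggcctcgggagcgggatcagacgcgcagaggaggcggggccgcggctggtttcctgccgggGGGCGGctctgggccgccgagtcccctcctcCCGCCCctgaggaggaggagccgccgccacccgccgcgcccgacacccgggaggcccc
ITGA2: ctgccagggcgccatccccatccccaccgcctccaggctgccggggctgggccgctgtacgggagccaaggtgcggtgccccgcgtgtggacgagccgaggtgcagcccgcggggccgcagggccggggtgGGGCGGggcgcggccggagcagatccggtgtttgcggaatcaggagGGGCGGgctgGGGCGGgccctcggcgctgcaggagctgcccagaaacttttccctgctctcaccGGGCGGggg

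The ITGAV window held 0 GC boxes, the ITGB1 window 3 and the ITGA2 window 4. Of 35116 promoter windows of this length 42.6% held at least 1. The 3 windows were rich in G and C, at 70.8% in ITGAV, 78.4% in ITGB1 and 76.4% in ITGA2, against a median of 58.0% over all windows. An E-box (CACGTG, its own reverse complement), the letters that c-Myc and its partner MAX are known to bind, was in none of these 3 windows and in 6.34% of all windows. A TATA box (TATAAA or TTTATA) was likewise in none of the 3, and in 10.7% of all windows. The RefSeq table had 11 windows for 6 of the members (ITGA2, ITGA6, ITGAV, ITGAE, ITGB1 and ITGB5), and 1 of the 11, the outermost of ITGA6, held an E-box. Of the 11 windows 5 held a GC box and 9 held no TATA box. Windows of the same gene differed: the second ITGB1 window, chr10:32935559-32935808 on the minus strand, held 0 GC boxes and was 41.6% G and C. It held 3 matches to the TATA box letters counted over both strands, with TATAAA and TTTATA overlapping in 1 stretch. The second ITGAV window, chr2:186599955-186600204 on the plus strand, held none of the 3 motifs and was 40.8% G and C. A match or its absence describes letters in these windows only, and the libraries measured mRNA and not promoter activity.

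The other integrin subunits were few and weak. Of 18 further alpha and beta genes 3 had a record, with 0 past the threshold in either direction and a median log2 ratio of 0.20. Among all records reaching an FPKM of 1 in either library, 7.04% were higher and 6.19% were lower. ITGA5, alpha 5 of the fibronectin receptor, was at 5.84 with LAST shRNA, against 7.06 with control shRNA (-0.24). ITGA7, alpha 7 of a laminin receptor of muscle, was at 1.85 with LAST shRNA, against 1.33 with control shRNA (0.29). ITGB8, a further partner of alpha V, was at 1.03 with LAST shRNA, against 0.764 with control shRNA (0.20). The remaining 15 had no record. With ITGB1 and ITGB5 lower in FPKM and ITGB8 near 1, no measured beta partner of ITGAV was at 0.58 or above.

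Among the ligands of integrins, 3 of 22 measured genes were lower and 1 was higher past the threshold. Over the 10405 records that reached an FPKM of 1 in either library, 6.19% were lower and 7.04% were higher. The median of the list was 0.17, against 0.01 over those records. CYR61, a secreted matricellular protein that binds alpha V and alpha 6 integrins, was at 7.44 with LAST shRNA, against 16.7 with control shRNA (-1.07). CTGF, of the same protein family, was at 1.29 with LAST shRNA, against 2.84 with control shRNA (-0.74), and THBS1, thrombospondin 1, at 5.27 with LAST shRNA, against 8.82 with control shRNA (-0.65). COL4A5, a chain of basement membrane collagen, was at 4.20 with LAST shRNA, against 2.26 with control shRNA (0.68). The largest exon held 53.4% of the transcript of CYR61, 59.2% of that of CTGF, 52.8% of that of THBS1 and 19.2% of that of COL4A5.

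The laminin chains named here, which belong to ligands of the receptors of ITGA3, ITGA6 and ITGB4, stayed within the threshold. LAMA5 was at 18.7 with LAST shRNA, against 18.8 with control shRNA (-0.01), and LAMA2 at 1.94 with LAST shRNA, against 1.78 with control shRNA (0.08). LAMB3 and LAMA3, other laminin chains of epithelia, were named after their values were seen. LAMB3 was at 11.5 with LAST shRNA, against 12.6 with control shRNA (-0.13). LAMA3, under an FPKM of 1 in both libraries, was at 0.902 with LAST shRNA, against 0.868 with control shRNA (0.03).

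In the hemidesmosome list 1 of 5 measured genes was higher and 0 were lower past the threshold, and the list's median was -0.03. The shares over all records at an FPKM of 1 in either library were 7.04% higher and 6.19% lower. PLEC, which encodes plectin, the cytoskeletal linker that binds beta 4, was at 92.2 with LAST shRNA, against 53.3 with control shRNA, 1.73-fold higher (0.78). ITGB4, at 0.39, did not pass the threshold, and the ratio of ITGB4 to PLEC was 0.719 with LAST shRNA, against 0.946 with control shRNA. DST, whose epithelial form is a second linker of hemidesmosomes, was at 9.45 with LAST shRNA, against 9.65 with control shRNA (-0.03). ERBIN, a binding partner of beta 4, was at 8.80 with LAST shRNA, against 10.5 with control shRNA (-0.23), KRT8 had a ratio of -0.12 and KRT18 one of 0.12. COL17A1, the transmembrane collagen of hemidesmosomes, was under an FPKM of 1 in both libraries, at 0.754 with LAST shRNA, against 0.442 with control shRNA (0.28). The ratios of the hemidesmosome genes had mixed signs. With 1 library per group, whether the small ones differ from 0 cannot be told.

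Of 41 measured genes of integrin activation and the adhesion plaque, 3 passed the threshold upward and 1 downward, and the list's median was 0.06. Over all records at an FPKM of 1 in either library 7.04% were higher and 6.19% lower, so that 3 of 41 is near the background. FERMT1 encodes kindlin-1, which binds beta subunit tails and activates integrins in epithelia, and was at 16.4 with LAST shRNA, against 7.59 with control shRNA, 2.16-fold higher (1.02). The second kindlin gene, FERMT2, named after its value was seen, was at 6.13 with LAST shRNA, against 7.99 with control shRNA (-0.33). RSU1, a protein bound to the complex of ILK, PINCH and parvin, was at 10.7 with LAST shRNA, against 4.23 with control shRNA (1.16). TES, testin, a LIM protein of adhesions, was at 31.3 with LAST shRNA, against 17.9 with control shRNA (0.77). VCL, vinculin, which links talin to actin, was at 24.2 with LAST shRNA, against 44.9 with control shRNA, 1.86-fold lower (-0.87). The smallest ratios were those of ITGB1BP1, which binds the tail of beta 1 (0.01), and LIMS1, PINCH1 (-0.02). The largest exon held 73.6% of the transcript of RSU1, 53.6% of that of TES, 51.5% of that of VCL and 48.6% of that of FERMT1.

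Of 19 other tetraspanins and their partners 1 was higher and 0 were lower past the threshold, and the list's median was 0.02, close to the ratio of CD151. Across all records at an FPKM of 1 in either library, 7.04% were higher and 6.19% lower. TSPAN13 was at 6.58 with LAST shRNA, against 3.05 with control shRNA (0.91). TSPAN17 had a ratio of -0.46, TSPAN5 one of -0.41 and TSPAN4 one of -0.30, and TSPAN1 and TSPAN6 were at 0.02 and -0.01. CD151 had a higher level than CD9, another tetraspanin of epithelial cells, which was at 30.7 with LAST shRNA, against 27.8 with control shRNA. It had a lower level than the tetraspanin CD63, which was at 45.2 with LAST shRNA, against 48.9 with control shRNA. Both CD9 and CD63 were named after their values were seen.

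Of 19 integrin-associated and other matrix receptors 1 was lower and 0 were higher past the threshold, and the list's median was -0.05. For all records at an FPKM of 1 in either library the shares were 6.19% lower and 7.04% higher. SDC1, the heparan sulfate proteoglycan syndecan-1, which is known to cooperate with alpha V integrins, was at 5.41 with LAST shRNA, against 14.6 with control shRNA, 2.69-fold lower (-1.28). LGALS1, galectin-1, was just short of the threshold at 114 with LAST shRNA, against 169 with control shRNA (-0.56). SLC3A2, the CD98 heavy chain that binds beta subunit tails, was at 37.1 with LAST shRNA, against 49.1 with control shRNA (-0.39), and CAV1, caveolin-1, at 49.3 with LAST shRNA, against 63.2 with control shRNA (-0.35). DAG1, dystroglycan, and CD47, which binds beta 3 integrins, had ratios of 0.01 and -0.02.

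Of 24 genes of integrin processing and trafficking 2 were lower and 1 was higher past the threshold, and the list's median was -0.05. Beside this, 6.19% of all records at an FPKM of 1 in either library were lower and 7.04% higher. FURIN, the protease that cleaves the precursors of alpha V, alpha 3 and alpha 6, was at 10.3 with LAST shRNA, against 6.21 with control shRNA (0.64). RAB4A, a GTPase of the rapid recycling of alpha V integrins, was at 7.99 with LAST shRNA, against 15.0 with control shRNA, 1.88-fold lower (-0.83). RAB25, an epithelial GTPase that binds beta 1, was at 16.9 with LAST shRNA, against 25.9 with control shRNA (-0.59). VPS26A had a ratio of 0.49, AP2A1 one of 0.00 and ARF6 one of 0.03.

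**Figure D5:**
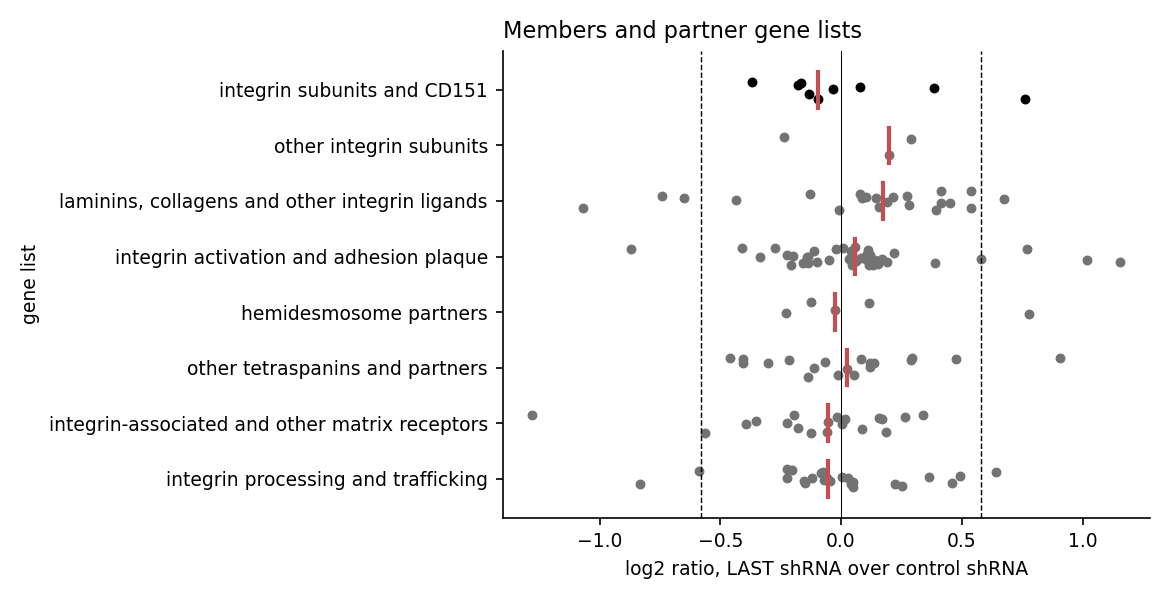
Log2 ratio of LAST shRNA over control shRNA (x axis) of each gene reaching an FPKM of 1 in either library, by gene list (y axis), with the 9 members in black at the top; red bars are medians, dashed lines mark 0.58 and -0.58, and vertical scatter within a list carries no value. The list medians lay between -0.09 for the members and 0.20 for the other integrin subunits, with single genes such as SDC1 at -1.28 and RSU1 at 1.16 far from them.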

How the data were processed

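mRNA-seq libraries of HCT116 cells were made with a KAPA stranded kit, 1 per group, and assigned to groups by their titles. According to the submitters' processing notes, cutadapt, FastQC, HISAT2 and StringTie were used with hg19. Versions, settings and the step from transcripts to genes: not given in the sources used here. The table that the authors deposited holds 1 FPKM value per gene and library, and in every record the higher value was at least 0.5. Both value columns were used. Log2 ratios were computed with a pseudocount of 1 and no further scaling, with the study's threshold of 0.58. With 1 library per group no test, SD or interval was possible, and with 2 libraries no gene can be named for a similar pattern. Lists kept genes that reached an FPKM of 1 in either library, and where a symbol had several records the most abundant one was used.

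The members and lists were chosen with earlier results of these data known. Named genes were all members, every other integrin subunit with a record, and per list up to 4 genes of largest and 2 of smallest absolute ratio that reached an FPKM of 1 in each library, besides any gene past the threshold in the hemidesmosome and tetraspanin lists. Exon structure came from GENCODE release 29 (GRCh38), which 11314 records (99.1%) matched by gene identifier. The code that counts genes past the threshold was tested on simulated data with known changes and an assumed spread, which gives no error for these libraries. Alternatives were pseudocounts of 0.1 and 0.5, 3 other scalings, other filters on low values and a threshold of 1. The work ran in Python 3.11.15 with pandas 2.3.3, numpy 2.4.6 and, for plots, matplotlib 3.10.9.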

Additional observations from a re-analysis of the deposited data

How the results depend on the processing

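Each member kept its direction and its side of the threshold of 0.58 with pseudocounts of 0.1 and 0.5, with a median log2 ratio of 0, with TPM and with equal upper quartiles. Over these 5 alternatives the log2 ratio of ITGAV lay between 0.76 and 0.84, that of ITGB4 between 0.38 and 0.39 and that of ITGB1 between -0.38 and -0.36. At a threshold of 1 the count of higher members was 0, since ITGAV was at 0.76. The counts of some partner lists differed by more than 1.5 times. With a pseudocount of 0.1, and equally with TPM, the higher genes were 2 among the ligands, 5 in the adhesion plaque list, 2 among the tetraspanins and 2 among the processing genes, and 1 tetraspanin was lower. TPM values were larger than FPKM values, so the pseudocount of 1 weighed less there. These 2 settings are therefore much alike and not independent checks. With a pseudocount of 0.5 the higher genes were 2 among the ligands and 2 among the tetraspanins. With an FPKM of at least 1 required in both libraries, 0 epithelial and colonic markers were higher, since KRT20 was left out. The other 204 of 218 values under alternatives stayed on the same side or within 1.5 times. Over all records the counts also rose, to 999 lower and 1242 higher with a pseudocount of 0.1 and 814 lower and 974 higher with one of 0.5. They were 978 lower and 1198 higher with TPM, against 672 and 777 with FPKM and a pseudocount of 1. No paired analysis was possible because each group had 1 library. Depth is unknown, so the counting error of weak genes such as ITGAE cannot be given, and no library could be left out.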
